A study of Mus musculus with 29 samples.

Results

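The CC chemokine genes Ccl2, Ccl3, Ccl4, Ccl5, Ccl6, Ccl7, Ccl9 and Ccl12 were followed in bulk RNA sequencing of microglia, the resident macrophages of the brain. They were the rows of the count table with these symbols, 8 of 36982 genes, all on chromosome 11, and all 8 passed the filter on low counts that left 16632 genes. The cells came from male C57BL/6J mice given a first intraperitoneal injection at 10 weeks of age and a second one 5 weeks later. Each injection was phosphate-buffered saline (P) or lipopolysaccharide (L, LPS) at 1 mg/kg, a constituent of bacterial walls that Toll-like receptor 4 detects. Starting 1 week after the first injection, mice of 3 groups received the CSF1R inhibitor BLZ945 (B) by gavage for 5 days at 169 mg/kg per day, which removes microglia that then grow back, and mice of the other groups received vehicle. The mice were killed at 15 weeks of age, 3 h after that second injection, and live brain cells were sorted by high CD11b, intermediate CD45 and absent Ly6C. After LPS given at both injections the groups were LBL (with BLZ945 between them, n = 5) and LL (with vehicle, n = 5). After saline and then LPS they were PBL (with BLZ945, n = 5) and PL (with vehicle, n = 4). After saline at both they were PBP (with BLZ945, n = 5) and PP (with vehicle, n = 5), which made 29 libraries in all. No lineage label marks the cells, so microglia that survived BLZ945 and newly formed ones cannot be told apart in LBL, PBL and PBP. The comparisons address whether microglia keep a memory of LPS given weeks before, and whether that memory outlasts depletion and regrowth.

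CC chemokines are small secreted proteins with a pair of adjacent cysteines that attract leukocytes through G protein-coupled receptors. Microglia that sense LPS through Toll-like receptor 4 release them within hours, with NF-kB as a main driver of their transcription. The products of Ccl2, Ccl7 and Ccl12 are monocyte chemoattractants and ligands of CCR2, the receptor that brings monocytes to inflamed tissue. Those of Ccl3, Ccl4 and Ccl5 attract macrophages and T cells, and Ccl3 and Ccl5 products bind CCR1. Ccl6 and Ccl9 are rodent genes whose products act on CCR1, and both are transcribed in unchallenged microglia.

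The 250 bases before the annotated start of Ccl12, Ccl3, Ccl9 and Ccl6 are printed because these genes cover the range of responses described next, from the strongly induced Ccl12 to Ccl6, for which no LPS response was called. Of the 8 genes these 4 matched an entry, and Ccl2, Ccl4, Ccl5 and Ccl7 did not. The sequences are the RefSeq entries of build GRCm38.p6, a different build from that of the counts, in the direction of transcription.
Ccl12, chr11:82101595-82101844, plus strand: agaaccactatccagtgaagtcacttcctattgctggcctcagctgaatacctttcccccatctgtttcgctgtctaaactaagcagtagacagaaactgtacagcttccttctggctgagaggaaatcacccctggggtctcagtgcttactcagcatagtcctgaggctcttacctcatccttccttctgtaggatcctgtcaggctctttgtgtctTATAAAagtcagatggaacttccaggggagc
Ccl3, chr11:83649379-83649628, minus strand: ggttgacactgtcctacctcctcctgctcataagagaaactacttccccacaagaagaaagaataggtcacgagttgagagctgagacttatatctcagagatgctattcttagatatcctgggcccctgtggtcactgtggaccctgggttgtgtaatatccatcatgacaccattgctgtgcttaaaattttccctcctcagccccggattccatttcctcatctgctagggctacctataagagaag
Ccl9, chr11:83578637-83578886, minus strand: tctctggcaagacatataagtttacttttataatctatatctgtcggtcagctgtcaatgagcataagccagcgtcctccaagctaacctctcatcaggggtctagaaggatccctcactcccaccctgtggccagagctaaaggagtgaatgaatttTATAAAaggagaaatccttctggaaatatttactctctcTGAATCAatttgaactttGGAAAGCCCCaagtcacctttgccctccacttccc
Ccl6, chr11:83593088-83593337, minus strand: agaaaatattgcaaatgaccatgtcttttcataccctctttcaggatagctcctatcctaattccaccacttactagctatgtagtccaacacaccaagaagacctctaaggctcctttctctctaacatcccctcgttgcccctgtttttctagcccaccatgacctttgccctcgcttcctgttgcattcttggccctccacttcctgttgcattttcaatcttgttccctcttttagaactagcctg
Capitals mark matches to TATAAA on the sense strand, to TGANTCA (the AP-1 motif) on either strand, and to the kappaB consensus, the NF-kB motif, on either strand. The core of the interferon-stimulated response element was searched on both strands too and had no match. Ccl12 held TATAAA at positions -31 to -26 from its start. In Ccl9 the match to TATAAA lay at -92 to -87, that to TGANTCA at -53 to -47 and that to the kappaB consensus at -35 to -26 on the opposite strand, and none overlapped another. Ccl3 and Ccl6 held no match to the 4 motifs in this window, which says nothing about the factors themselves. Over 250 bases before to 50 after the start, 8.32% of all 32851 tabled promoters held TATAAA, 7.81% TGANTCA, 4.51% the kappaB consensus and 3.44% the core of the interferon-stimulated response element.

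Each library held 5670450 to 12671476 counts. RNA quality numbers moved with the groups, at 7.6 to 8.9 in LBL, 7.9 to 8.9 in LL, 7.4 to 7.9 in PBL, 6.5 to 9.1 in PL, 7.4 to 9.0 in PBP and 8.6 to 9.1 in PP. PBP replicate 5 had the 7.4, and the other PBP libraries had 8.8 or more. The part of RNA quality in the results was not tested. Groups were almost separated by sorting day and by sorter. LBL and LL were sorted on days 1 and 2 and PBL and PBP replicate 5 on day 3, all on a MoFlo XDP, whereas PL, the other PBP libraries and PP were sorted on days 4 and 5 on a MoFlo Astrios. Levels are given as CPM, counts scaled to library size. The 11 defining microglia genes were abundant in every library, summing to 43189 to 49157 CPM in LBL, 43836 to 54926 in LL, 35696 to 50598 in PBL, 49529.7 to 56497 in PL, 52068 to 71596 in PBP and 63342 to 75574 in PP. Neutrophil genes summed to 127 to 484 CPM in PBL, against at most 35.4 CPM in any library of the other groups. In bulk libraries, fewer cells of a type and less RNA per cell cannot be told apart.

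The set of abundant CC chemokine genes differed between challenged and unchallenged microglia. Per kilobase of exon, Ccl6 had the highest mean level in unchallenged PP microglia at 256 CPM per kilobase, followed by Ccl12 at 149.5. Then came Ccl9 at 74.1, Ccl4 at 62.7, Ccl3 at 47.2, Ccl2 at 18.1, Ccl5 at 5.81 and Ccl7 at 1.76. After a first LPS, in PL, Ccl12 led at 7216 CPM per kilobase, ahead of Ccl4 at 1023, with Ccl5 at 311, Ccl3 at 295, Ccl2 at 294, Ccl6 at 262, Ccl9 at 182 and Ccl7 at 132 behind. Exon lengths came from the GENCODE M21 annotation, which is of another build than the counts. All later levels are CPM and are compared only between libraries.

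**Figure D1:**
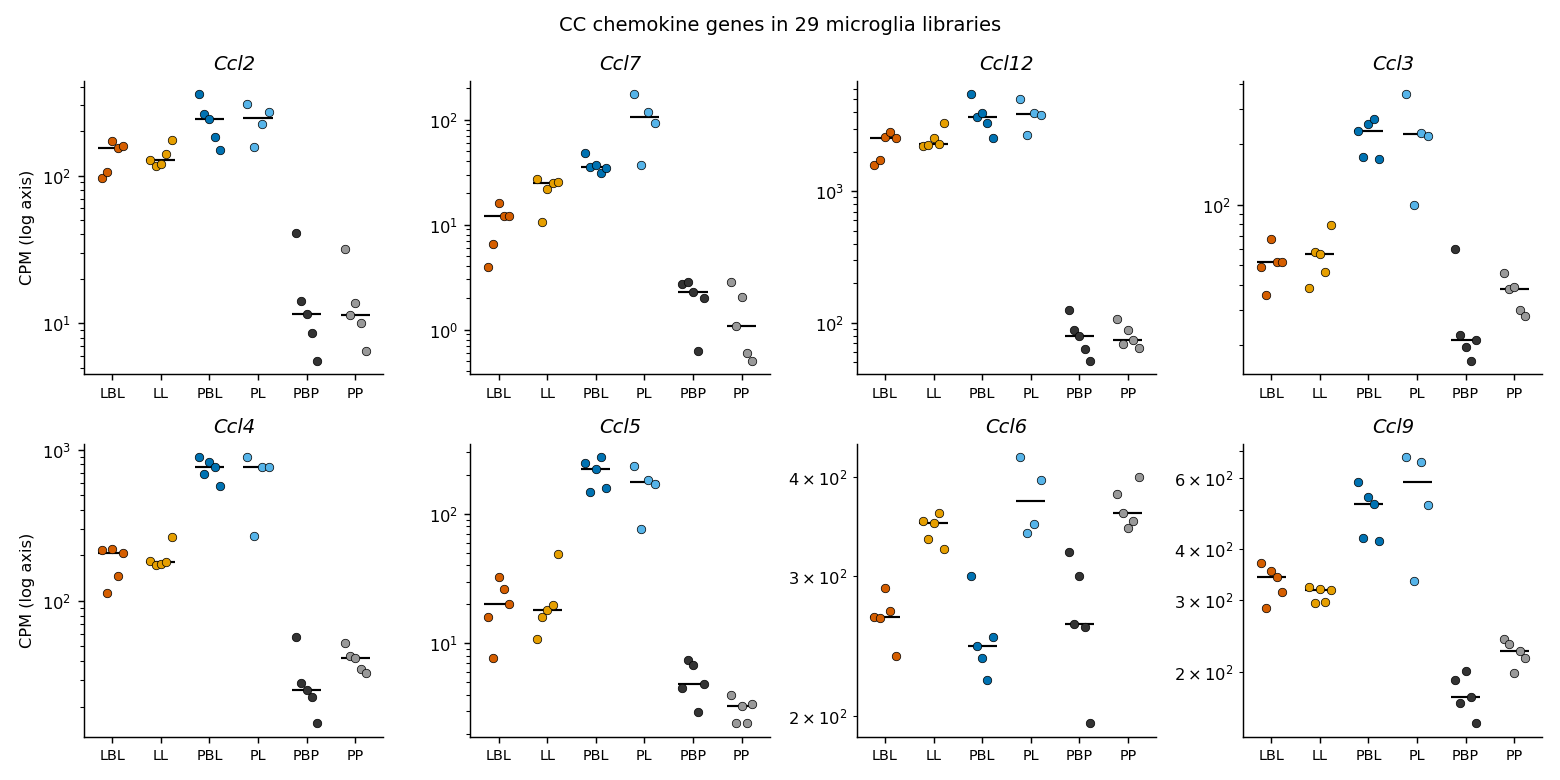
CPM of each CC chemokine gene (log axis) in every library, by group, with 1 point per library and a line at the group's median. Except for Ccl6, every gene is higher in the PBL and PL libraries than in every PBP and PP library, and Ccl6 is lowest in the groups given BLZ945 (LBL, PBL and PBP).

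A first LPS raised 7 of the 8 genes in microglia that had never been depleted (PL against PP), where 14.2% of all tested genes were called higher and 11.9% lower by edgeR's quasi-likelihood test at an adjusted p under 0.05. Ccl12, a CCR2 ligand gene, had 5035, 2695, 3964 and 3806 CPM in the PL libraries, against 106, 68.7, 88.8, 73.8 and 64.2 CPM in the PP libraries, a difference of 5.59 on the log2 scale (SE 0.27, adjusted p = 4.37e-15). Every PL library was far above every PP library, and PL replicate 2 was the lowest of PL. Ccl7, another CCR2 ligand gene, had 174, 37.2, 117 and 92.7 CPM in PL and 2.85, 1.08, 2.02, 0.599 and 0.503 CPM in PP, a difference of 6.21 on the log2 scale (SE 0.48, adjusted p = 2.67e-11). It rested on 4 to 23 counts per PP library, and had the largest fold change of the 8 genes. The third CCR2 ligand gene, Ccl2, had 306, 157, 224 and 271 CPM in PL and 31.7, 11.4, 13.8, 10.1 and 6.54 CPM in PP (log2 fold change 4.02, SE 0.45, adjusted p = 1.18e-07).

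Of Ccl3, Ccl4 and Ccl5, whose products attract macrophages and T cells, Ccl5 had 234, 76.5, 182 and 169 CPM in PL and 3.96, 2.42, 3.29, 2.40 and 3.40 CPM in PP, a difference of 5.74 on the log2 scale (SE 0.46, adjusted p = 2.34e-10). Ccl4 reached 268 to 893 CPM in PL, against 33.3 to 53.1 CPM in PP (log2 fold change 4.03, SE 0.32, adjusted p = 2.22e-10). Ccl3, whose product is also called macrophage inflammatory protein 1-alpha, reached 99.9 to 355 CPM in PL and 27.9 to 45.9 CPM in PP (log2 fold change 2.65, SE 0.33, adjusted p = 5.28e-07). PL replicate 2 was the lowest PL library for all 3 genes, and the groups did not overlap for any of them. Of the CCR1 ligand genes, Ccl9 rose to 334 to 675 CPM in PL, against 198 to 240.4 CPM in PP (log2 fold change 1.29, SE 0.13, adjusted p = 1.49e-09). For its neighbour Ccl6, no change was called. Ccl6 had 424, 340.4, 349 and 397 CPM in PL and 381, 360.4, 345, 353 and 400.1 CPM in PP. The groups overlapped, and the 95% interval of its log2 fold change was -0.18 to 0.25. The libraries of PL and PP did not overlap for 7 of the 8 genes, against 11.5% of all tested genes with every PL library above every PP library. The PP libraries and PL replicates 3 and 4 shared day 5. With sorting day in the fit the same 7 genes were called, with log2 fold changes between 1.41 for Ccl9 and 6.21 for Ccl7.

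Repopulated microglia responded to a first LPS with the same 7 genes (PBL against PBP), where 21.5% of all tested genes were called higher and 21.5% lower. Ccl12 had 5461, 3647, 3911, 3289 and 2537 CPM in PBL and 124, 88.6, 79.8, 63.7 and 51.4 CPM in PBP, a difference of 5.53 on the log2 scale (SE 0.27, adjusted p = 3.02e-15). Ccl5 had 250.0, 147, 225, 276 and 159.7 CPM in PBL and 4.53, 7.45, 6.84, 2.95 and 4.80 CPM in PBP (log2 fold change 5.34, SE 0.43, adjusted p = 1.91e-10). Every PBL library was above every PBP library for both, which held for 12.5% of all tested genes. Ccl7 had 48.3, 35.3, 36.6, 31.3 and 34.6 CPM in PBL, a narrow range, and 2.70, 2.83, 2.28, 0.625 and 2.01 CPM in PBP (log2 fold change 4.18, SE 0.44, adjusted p = 1.03e-08). Log2 fold changes were 3.86 (SE 0.43) for Ccl2, 4.63 (SE 0.33) for Ccl4, 2.97 (SE 0.33) for Ccl3 and 1.50 (SE 0.13) for Ccl9, each with an adjusted p of at most 9.41e-08. Ccl6 again overlapped between the groups, at 222 to 300.1 CPM in PBL and 195 to 322 CPM in PBP (log2 fold change -0.09, SE 0.10, adjusted p = 0.487). PBP replicate 5 was the only PBP library sorted with PBL. With that library alone standing for PBP, all 7 genes were still called, Ccl7 at 4.17 (adjusted p = 0.000143) and Ccl2 at 5.39 (adjusted p = 1.34e-06), with the spread taken from the other XDP libraries.

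**Figure D2:**
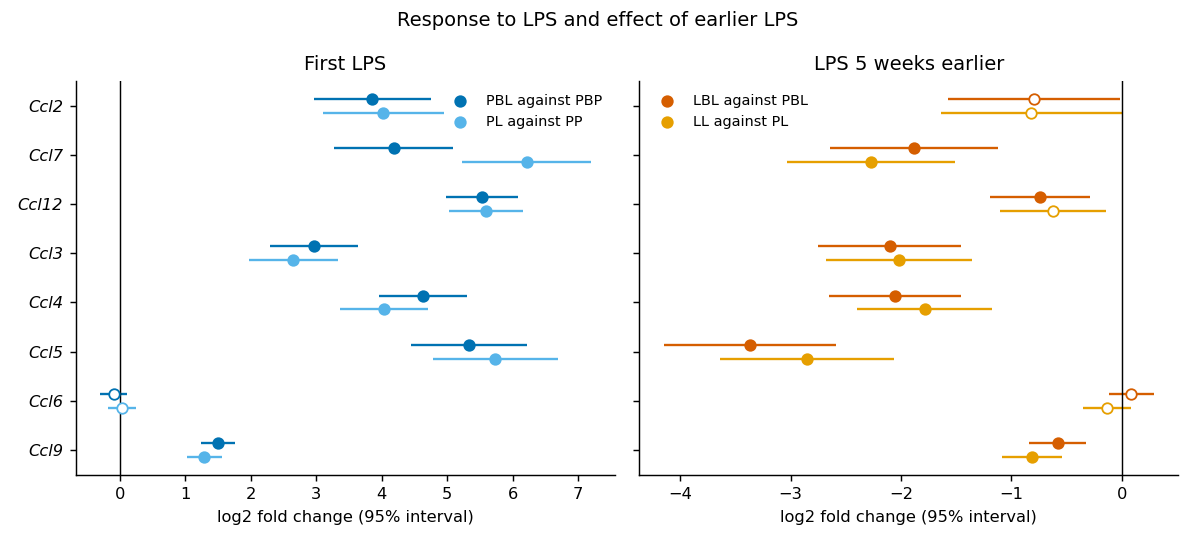
Log2 fold change with 95% interval (horizontal axis) of each gene for a first LPS (left) and for LPS given 5 weeks before the second (right), in mice with and without BLZ945. Filled points were called at an adjusted p under 0.05. A first LPS moved 7 genes by 1.29 to 6.21 on the log2 scale in PL, and with earlier LPS Ccl5 has the lowest values, -3.37 in LBL and -2.85 in LL.

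After the second LPS, 5 of the 8 genes were lower in mice that had received LPS 5 weeks earlier and kept their microglia (LL against PL). None was higher, where 2.03% of all tested genes were called lower and 0.752% higher. Ccl5 had 10.8, 16.0, 18.0, 19.9 and 49.4 CPM in LL, against 234, 76.5, 182 and 169 CPM in PL, a difference of -2.85 on the log2 scale (SE 0.38, adjusted p = 3.44e-05). LL replicate 5 was the highest of LL and still below every PL library. Ccl7 had 27.0, 10.6, 21.8, 25.1 and 25.2 CPM in LL and 174, 37.2, 117 and 92.7 CPM in PL (log2 fold change -2.27, SE 0.37, adjusted p = 0.000253). Ccl3 had 38.5, 58.2, 57.1, 46.4 and 79.0 CPM in LL and 355, 99.9, 229 and 221 CPM in PL (log2 fold change -2.02, SE 0.32, adjusted p = 0.000257). No library of LL reached PL for either gene, and 2.84% of all tested genes had every LL library below every PL library. Ccl4 fell to 196 ± 38.8 CPM in LL, against 675 ± 278 CPM in PL (SD, n = 5 and n = 4; log2 fold change -1.79, SE 0.30, adjusted p = 0.000468). Ccl9 fell to 310.4 ± 13.9 CPM in LL, against 546 ± 158 CPM in PL (log2 fold change -0.81, SE 0.13, adjusted p = 0.000153).

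No change was called for the CCR2 ligand genes Ccl2 and Ccl12 between LL and PL. Ccl12 had 2210.3, 2257, 2546, 2293 and 3278 CPM in LL and 5035, 2695, 3964 and 3806 CPM in PL (log2 fold change -0.62, SE 0.23, adjusted p = 0.167). Ccl2 had 127, 117, 119, 140.3 and 174 CPM in LL and 306, 157, 224 and 271 CPM in PL (log2 fold change -0.82, SE 0.40, adjusted p = 0.317). For both, the overlap came from PL replicate 2, which lay within the LL range, while PL replicates 1, 3 and 4 were above every LL library. With the groups compared alone in the fit, both were called lower at -0.80 (adjusted p = 0.0182) for Ccl2 and -0.60 (adjusted p = 0.0486) for Ccl12. Ccl6 overlapped at 325 to 361 CPM in LL and 340.4 to 424 CPM in PL (log2 fold change -0.13, SE 0.11, adjusted p = 0.592). All LL libraries were sorted on the XDP and all PL libraries on the Astrios, on other days, so the earlier LPS and the sort cannot be told apart in this comparison. With the sorter in the fit, which then rests on PBP replicate 5, none of the 8 genes was called. Ccl2 and Ccl12 were then of the other sign, at 0.93 (adjusted p = 0.734) for Ccl2 and 0.17 (adjusted p = 0.918) for Ccl12, and so was Ccl6 at 0.41 (adjusted p = 0.347). The log2 fold changes were then -2.71 (adjusted p = 0.294) for Ccl5 and -2.26 (adjusted p = 0.435) for Ccl7. They were -1.54 (adjusted p = 0.35) for Ccl3, -0.66 (adjusted p = 0.7) for Ccl4 and -0.52 (adjusted p = 0.394) for Ccl9.

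After depletion and repopulation the earlier LPS was still followed by lower levels (LBL against PBL): 6 of the 8 genes were called lower and none higher, where 4% of all tested genes were called lower and 2.74% higher. LBL and PBL were sorted on the same instrument but on different days, which cannot be told apart from the earlier LPS. Neutrophil genes summed to 0.873 to 4.72 CPM in LBL and 127 to 484 CPM in PBL. All 7 neutrophil genes tested and 2 of 6 monocyte genes tested were called lower in LBL. Their part in the chemokine differences was not tested. Ccl5 had 15.9, 7.76, 32.8, 26.4 and 20.2 CPM in LBL, against 250.0, 147, 225, 276 and 159.7 CPM in PBL, a difference of -3.37 on the log2 scale (SE 0.38, adjusted p = 1.34e-06). Ccl3 had 48.9, 35.4, 67.3, 51.9 and 52.0 CPM in LBL and 234, 173, 252, 268 and 169.5 CPM in PBL (log2 fold change -2.10, SE 0.31, adjusted p = 6.86e-05). Ccl7 had 3.93, 6.50, 15.9, 12.2 and 12.0 CPM in LBL and 48.3, 35.3, 36.6, 31.3 and 34.6 CPM in PBL (log2 fold change -1.88, SE 0.37, adjusted p = 0.00172). For these 3 genes every LBL library was below every PBL library by a wide margin. Ccl4 came to 181 ± 47.9 CPM in LBL, against 751 ± 125 CPM in PBL (SD, n = 5 each; log2 fold change -2.06, SE 0.29, adjusted p = 3.3e-05). Ccl9 came to 333 ± 33.3 CPM in LBL, against 498 ± 71.97 CPM in PBL (log2 fold change -0.58, SE 0.13, adjusted p = 0.0033). Libraries of the groups did not overlap for 5 of the 8 genes, against 4.44% of all tested genes with every LBL library below every PBL library.

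Of the CCR2 ligand genes Ccl2 and Ccl12, only Ccl12 was called in LBL against PBL, near the threshold. Ccl12 had 1584, 1719.8, 2577, 2839 and 2565 CPM in LBL and 5461, 3647, 3911, 3289 and 2537 CPM in PBL and was called lower (log2 fold change -0.74, SE 0.22, adjusted p = 0.0418). The groups overlapped through PBL replicate 5, and the call was lost without any 1 of PBL replicates 1, 2, 3 and 4 and LBL replicates 1 and 2 (adjusted p up to 0.122) and without the filter on low counts. Ccl2 had 95.7, 105, 173, 153 and 159 CPM in LBL and 355, 261, 242, 184 and 149 CPM in PBL, and missed the threshold (log2 fold change -0.80, SE 0.38, adjusted p = 0.244). It was called lower among the XDP libraries alone (-0.79, adjusted p = 0.0223), with LBL and PBL alone in the fit (-0.8, adjusted p = 0.0237) and with limma voom (-0.76, adjusted p = 0.0398). It was also called without the 5 libraries that stood apart, described below. The other alternatives did not call it (adjusted p up to 0.415). Mean levels after earlier LPS, as a percentage of those without it, were 9.75% for Ccl5, 23.3% for Ccl3, 24.1% for Ccl4, 27.1% for Ccl7, 57.6% for Ccl2, 59.9% for Ccl12, 66.9% for Ccl9 and 106% for Ccl6 with depletion. Without depletion they were 13.8% for Ccl5, 20.8% for Ccl7, 24.7% for Ccl3, 28.98% for Ccl4, 56.6% for Ccl2, 56.9% for Ccl9, 65.0% for Ccl12 and 91.3% for Ccl6. In both settings Ccl3, Ccl4, Ccl5 and Ccl7 were at 28.98% of the first-LPS level or less, and the other 4 genes at 56.6% or more.

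Whether depletion changed the effect of the earlier LPS was tested as the difference of the 2 effects. The difference (LBL against PBL, minus LL against PL) was called for none of the 8 genes, against 0.0241% of all tested genes. Its 95% intervals on the log2 scale were -1.58 to 0.55 for Ccl5, -0.67 to 1.45 for Ccl7, -1.11 to 0.57 for Ccl4, and -0.99 to 0.82 for Ccl3. They were -1.11 to 1.16 for Ccl2, -0.78 to 0.54 for Ccl12, -0.14 to 0.61 for Ccl9 and -0.08 to 0.52 for Ccl6, with adjusted p from 0.491 to 0.988. The intervals of Ccl2, Ccl4, Ccl5 and Ccl7 reached beyond 1 log2 unit. For none of the 8 genes do these data show that the effect was alike in both settings. LL and PL were sorted on different instruments, and LBL and PBL on the same one. The sorter and the depletion therefore cannot be told apart in this difference. With the sorter in the fit, Ccl2 came to -1.73 (adjusted p = 0.954), against 0.03 as reported. Ccl6 and Ccl9 changed sign too, to -0.33 (adjusted p = 0.954) and -0.06 (adjusted p = 0.996).

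After LPS at both injections, most of the 8 genes were above their unchallenged levels. No group received LPS and then saline, so the parts of the first and the second LPS cannot be told apart here. Against unchallenged microglia, 6 of the 8 genes were called higher in LL (LL against PP, 18.9% of all tested genes higher) and 7 in LBL (LBL against PBP, 14.6%), and none was called lower (13.2% and 13.6% of all tested genes). Ccl12 had 2517 ± 445 CPM in LL and 80.3 ± 17.1 CPM in PP (SD, n = 5 each), a difference of 4.97 on the log2 scale (SE 0.26, adjusted p = 3.35e-14). It had 2257 ± 565 CPM in LBL, against 81.6 ± 27.9 CPM in PBP (log2 fold change 4.79, SE 0.26, adjusted p = 5.17e-14). On the log2 scale Ccl2 was higher by 3.20 (SE 0.43, adjusted p = 2.75e-06) in LL and by 3.06 (SE 0.42, adjusted p = 4.08e-06) in LBL. Ccl7 was higher by 3.94 (SE 0.46, adjusted p = 1.55e-07) in LL and 2.30 (SE 0.45, adjusted p = 0.000281) in LBL. For each of the 3 CCR2 ligand genes, every LL library was above every PP library and every LBL library above every PBP library. The share of all tested genes with such separation is not given for these comparisons, so how common it is cannot be judged here. Ccl4 was higher by 2.24 (SE 0.30, adjusted p = 2.09e-06) in LL and by 2.57 (SE 0.30, adjusted p = 2.81e-07) in LBL. Ccl5 was higher by 2.88 (SE 0.45, adjusted p = 1.88e-05) in LL and by 1.97 (SE 0.42, adjusted p = 0.000849) in LBL. Ccl9 was higher by 0.48 (SE 0.13, adjusted p = 0.00399) in LL and 0.92 (SE 0.13, adjusted p = 7.82e-07) in LBL. In both comparisons the groups differ in sorter, apart from PBP replicate 5. With the sorter in the fit some of these values were no longer called, although none was smaller. In LL they were 3.03 (adjusted p = 0.0808) for Ccl5 and 0.77 (adjusted p = 0.0641) for Ccl9. In LBL they were 2.08 (adjusted p = 0.154) for Ccl5, 2.31 (adjusted p = 0.133) for Ccl7 and 1.26 (adjusted p = 0.243) for Ccl3, which is described next.

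Among Ccl2, Ccl3, Ccl4, Ccl5, Ccl7 and Ccl12, Ccl3 was nearest to its unchallenged level after earlier LPS. It had 38.5, 58.2, 57.1, 46.4 and 79.0 CPM in LL and 45.9, 38.2, 38.9, 29.9 and 27.9 CPM in PP, with overlap and no call (log2 fold change 0.63, SE 0.31, adjusted p = 0.123). It was called higher with LL and PP alone in the fit (log2 fold change 0.66, adjusted p = 0.00944) and without 5 libraries that stood apart, a set chosen after seeing the data (PP replicate 1, PBP replicates 1 and 5, PL replicate 2 and LL replicate 5; log2 fold change 0.57, adjusted p = 0.0225). It had 48.9, 35.4, 67.3, 51.9 and 52.0 CPM in LBL and 59.9, 22.3, 19.5, 16.7 and 21.2 CPM in PBP. It was called higher at an adjusted p just under the threshold (log2 fold change 0.86, SE 0.31, adjusted p = 0.0417). The overlap in that pair came from PBP replicate 1, whose Ccl3 level lay above 4 of the 5 LBL libraries, and the call was lost without any 1 of PBP replicates 2, 3, 4 and 5 and LBL replicates 1, 3, 4 and 5 (adjusted p up to 0.113). Ccl6 was not called in LL (log2 fold change -0.09, SE 0.10, adjusted p = 0.507) or in LBL (log2 fold change -0.01, SE 0.10, adjusted p = 0.975).

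Ccl6, the CCR1 ligand gene without a called LPS response, had lower levels in the BLZ945 groups, but its calls depended on the fit. All 15 libraries of the BLZ945 groups, at up to 322 CPM, were just below all 14 libraries of the other groups, at 325 CPM or more. The share of all tested genes with such a split was not counted. Without LPS, Ccl6 had 322, 261, 299.9, 259 and 195 CPM in PBP, against 381, 360.4, 345, 353 and 400.1 CPM in PP. It was the 1 gene of 8 called (log2 fold change -0.46, SE 0.10, adjusted p = 0.0218), where 0.241% of all tested genes were called lower and 0.289% higher. Every PBP library was below every PP library (1.35% of all tested genes), and PBP replicate 5, sorted apart, was the lowest. Without that library the log2 fold change was -0.37 (adjusted p = 0.07), and the call was also lost without PBP replicate 2 (0.06), PP replicate 1 (0.0647) or PP replicate 5 (0.0544). PBP was sorted on days 3 and 4 and PP on day 5, so the sorting day and the depletion cannot be told apart here. The call was lost with sorting day in the fit (log2 fold change -0.41, adjusted p = 0.417), with a term for the sorter (-0.37, adjusted p = 0.0618), with the Astrios libraries alone (-0.37, adjusted p = 0.108) and with PBP and PP alone in the fit (-0.45, adjusted p = 0.0692). After a first LPS, Ccl6 had 300.1, 245, 236, 222 and 251 CPM in PBL and 424, 340.4, 349 and 397 CPM in PL, a difference of -0.59 on the log2 scale (SE 0.11, adjusted p = 0.000533). The groups did not overlap (6.13% of all tested genes), and 11.1% of all tested genes were called lower and 11% higher. After repeated LPS it had 266, 266, 289.8, 271 and 238 CPM in LBL and 352, 334, 351, 361 and 325 CPM in LL, and narrowly missed the threshold (log2 fold change -0.37, SE 0.10, adjusted p = 0.055). The groups did not overlap (3.04% of all tested genes), and 0.722% of all tested genes were called lower and 0.487% higher. Both groups were sorted on the XDP, with LBL replicates 1 to 4 and LL replicate 5 on day 1, and LBL replicate 5 and LL replicates 1 to 4 on day 2, so that day and depletion were almost confounded. With sorting day in the fit the value was -0.40 (adjusted p = 0.0505), against -0.37 (adjusted p = 0.0158) with the sorter in the fit and -0.35 (adjusted p = 0.0155) with DESeq2. Left out alone, LL replicate 2 brought it under the threshold (log2 fold change -0.41, adjusted p = 0.0441). For PBL against PL, the sorter and the depletion cannot be told apart, and with the sorter in the fit Ccl6 came to -0.04 (adjusted p = 0.991).

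Ccl7 was lower in repopulated microglia after a first LPS, at 48.3, 35.3, 36.6, 31.3 and 34.6 CPM in PBL and 174, 37.2, 117 and 92.7 CPM in PL (log2 fold change -1.50, SE 0.36, adjusted p = 0.0057). PL replicate 2 lay within the PBL range, and the other 3 PL libraries were above every PBL library. With the sorter in the fit the value was -1.49 (adjusted p = 0.916). After repeated LPS, Ccl7 had 3.93, 6.50, 15.9, 12.2 and 12.0 CPM in LBL and 27.0, 10.6, 21.8, 25.1 and 25.2 CPM in LL, without a call (log2 fold change -1.11, SE 0.37, adjusted p = 0.154). Among the XDP libraries alone the same difference was called (log2 fold change -1.11, adjusted p = 0.0498). Without LPS it was at 7 to 25 counts per PBP library and 4 to 23 per PP library, without a call (log2 fold change 0.53, SE 0.56, adjusted p = 0.786). The log2 fold change of Ccl7 with a first LPS in PBL against PBP minus that in PL against PP was -2.03 (95% interval -3.40 to -0.66), which was not called (adjusted p = 0.226). PBL and PBP differ in sorter, apart from PBP replicate 5, and PL and PP do not. The sorter and the depletion therefore cannot be told apart in this difference. With the sorter in the fit Ccl2, Ccl12 and Ccl6 changed sign in it, to 1.39, 0.6 and 0.32, without a call. None of the 8 genes was called for that difference of effects, nor any other tested gene (0%) in edgeR. There were 2120 genes at an unadjusted p under 0.05, 1 called with DESeq2 size factors in edgeR, 55 with DESeq2 and 0 with limma voom, and 740 without PBP replicate 5. The 95% intervals of the other differences were -1.37 to 1.04 for Ccl2, -0.73 to 0.61 for Ccl12, -0.60 to 1.24 for Ccl3, -0.27 to 1.46 for Ccl4, -1.66 to 0.86 for Ccl5, -0.43 to 0.17 for Ccl6 and -0.17 to 0.58 for Ccl9. Without the 5 libraries that stood apart, PP replicate 1, PBP replicates 1 and 5, PL replicate 2 and LL replicate 5, a set chosen after seeing the data, Ccl7 was called at -2.56 (adjusted p = 0.0498). Between PBL and PL no other gene of the 8 was called, with 95% intervals of the log2 fold change of -0.83 to 0.81 for Ccl2, and -0.52 to 0.44 for Ccl12. They were -0.69 to 0.60 for Ccl3, -0.45 to 0.76 for Ccl4, -0.39 to 1.09 for Ccl5 and -0.40 to 0.14 for Ccl9. Between LBL and LL none was called, with values between -0.17 and 0.10 for the 6 genes other than Ccl6 and Ccl7, and 2119 of all tested genes were at an unadjusted p under 0.05.

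Genes of border-associated macrophages, the macrophages of the meninges and vessel walls, had lower sums in the groups given BLZ945. The 9 genes of that list, Mrc1, Cd163, Lyve1 and Pf4 among them, summed to 12.2 to 24.7 CPM in LBL and 56.7 to 97.1 in LL. They summed to 18.6 to 36.5 in PBL and 91.9 to 161 in PL, and to 27.0 to 47.6 in PBP and 57.8 to 122 in PP, without overlap in any pair. None of the 9 was at 0 in every library of a group, and Mrc1 alone averaged 9.60 CPM in PBL and 42.1 CPM in PL. Their part in the differences of Ccl6 and Ccl7 was not tested. The summed level of 8 neuron genes differed by sorter, at 46.9 CPM or more in every XDP library and 42.1 CPM or less in every Astrios library. It was 76.5 to 179.9 CPM in LBL, 46.9 to 189 in LL, 102 to 192 in PBL, 21.5 to 42.1 in PL, 21.7 to 147 in PBP and 11.3 to 30.7 in PP, with the 147 in PBP replicate 5. All 8 neuron genes were called higher in PBL against PL and in LL against PP, 3 in LL against PL and none in LBL against PBL or LBL against LL. Of 7 astrocyte genes 5 were called higher and 1 lower in PBL against PL, and 4 were higher in LL against PP. Of 6 oligodendrocyte genes, 3 were higher and 1 lower in both of these comparisons, and of 5 red blood cell genes 3 were higher in PBL against PL and 4 in LL against PP. The 6 endothelial genes summed to 15.0 to 62.5 CPM over all libraries. The 5 listed B cell genes, of which 2 could be tested, summed to 154 to 400.3 CPM in LPS libraries and 467 to 945 CPM in the others. The part of these genes in the chemokine differences was not tested. Monocyte genes summed to 23.7 to 78.5 CPM in PBL and 8.54 to 18.8 in PL, with Ly6c2 at 0 in every PL library. Of the 6 monocyte genes tested, 2 were called higher in PBL against PL and none lower. Ccr2, which is on that list, averaged 2.77 CPM in PBL and 5.79 CPM in PL. The 12 T and NK cell genes, from cells that also transcribe Ccl5, summed to at most 1.82 CPM in any library.

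**Figure D3:**
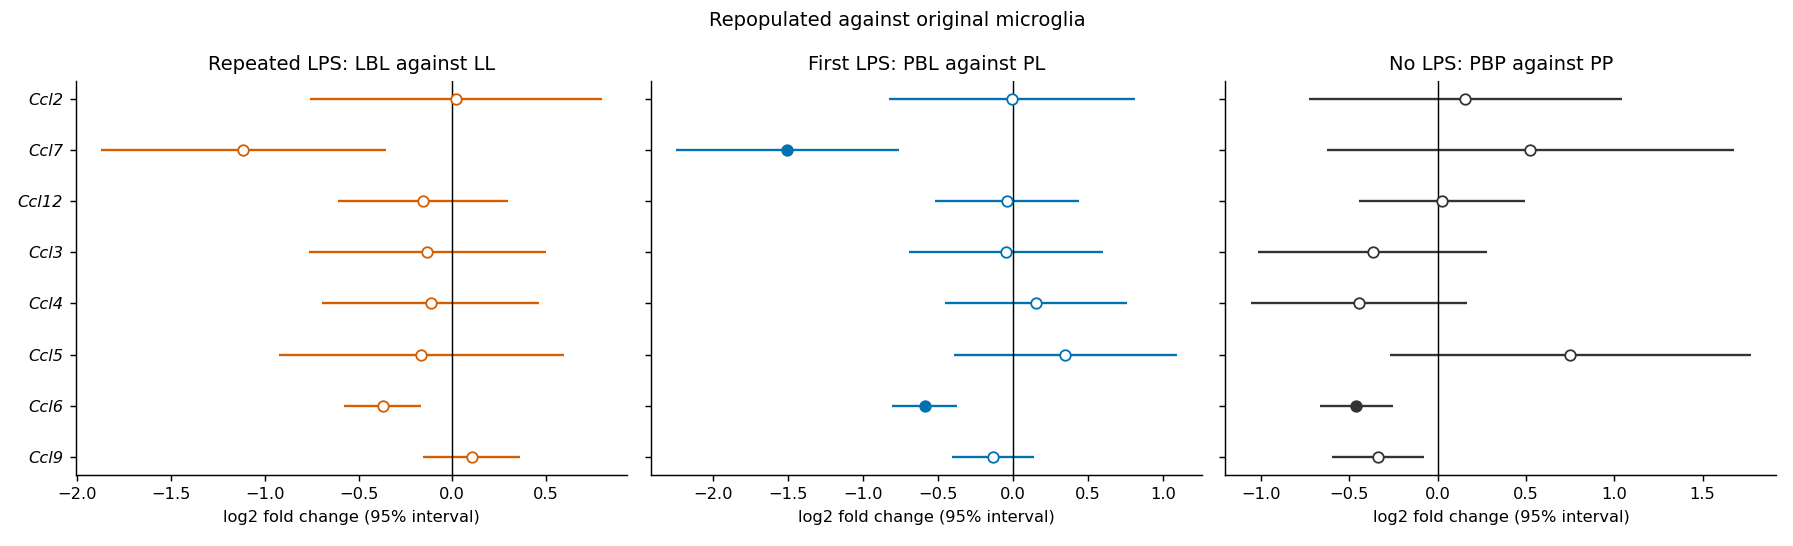
Log2 fold change with 95% interval of each gene in repopulated against original microglia after repeated LPS, after a first LPS and without LPS. Filled points were called at an adjusted p under 0.05: Ccl6 at -0.59 and Ccl7 at -1.50 after a first LPS, and Ccl6 at -0.46 without LPS.

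Ratios between these genes within a library do not depend on library scaling, and they are given as descriptions. The log2 ratio of Ccl2 to Ccl12 was -4.21 to -3.90 in LBL, -4.41 to -4.03 in LL, -4.16 to -3.80 in PBL and -4.15 to -3.81 in PL, against -3.21 to -1.60 in PBP and -3.29 to -1.74 in PP. The ratio of this pair thus spanned less than 1 log2 unit over all 19 LPS libraries, with or without earlier LPS or depletion. The log2 ratio of Ccl3 to Ccl4 was -2.15 to -1.50 in LBL, -2.26 to -1.57 in LL, -1.99 to -1.53 in PBL and -1.81 to -1.33 in PL, against -0.46 to 0.45 in PBP and -0.26 to -0.11 in PP. The ratio of Ccl7 to Ccl2 was -4.60 to -3.44 in LBL, -3.46 to -2.24 in LL, -2.89 to -2.11 in PBL and -2.08 to -0.81 in PL, against -3.93 to -1.47 in PBP and -4.07 to -2.77 in PP. Its ranges overlapped between LBL and LL and between LL and PBL, and PL lay above the other LPS groups. The ratio of Ccl6 to Ccl9 was -0.47 to -0.11 in LBL and 0.03 to 0.29 in LL, without overlap, and -1.22 to -0.74 in PBL and -0.92 to 0.03 in PL, against 0.39 to 0.76 in PBP and 0.62 to 0.89 in PP.

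**Figure D4:**
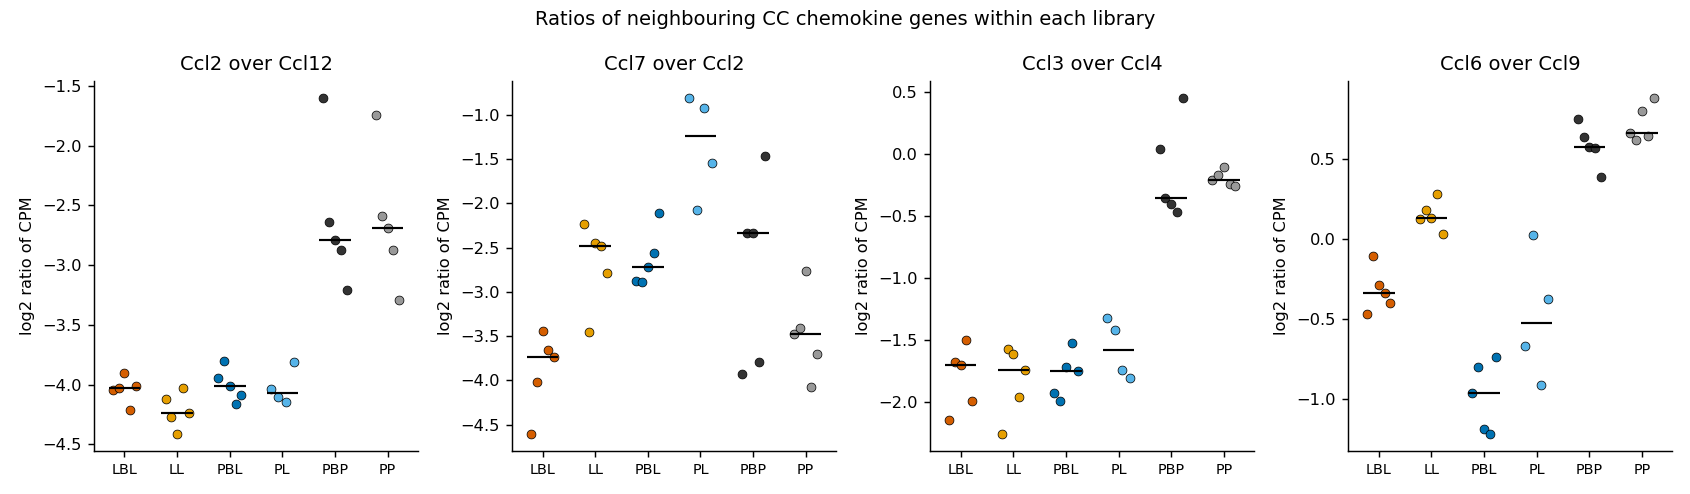
Log2 ratio of CPM between members of 4 gene pairs in each library, by group, with a line at the group's median. Ccl2 over Ccl12 and Ccl3 over Ccl4 lie in one band in the LPS groups (LBL, LL, PBL and PL) and higher in PBP and PP, while Ccl7 over Ccl2 has its highest median in PL and its lowest in LBL.

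Among the mice without LPS, PBP replicate 1 and PP replicate 1 had the highest levels of Ccl2, Ccl3, Ccl4 and Ccl12 in their groups. Ccl2 had 41.0, 14.3, 11.5, 8.66 and 5.58 CPM in PBP and 31.7, 11.4, 13.8, 10.1 and 6.54 CPM in PP, with replicate 1 highest in both. The 11 early genes that handling and dissociation of tissue induce, such as Fos, Jun, Egr1 and Dusp1, were highest in the same libraries. They summed to 2006 CPM in PBP replicate 1 and 1195 CPM in PP replicate 1, against 290.1 to 527 CPM in the other PBP libraries and 306 to 477 CPM in the other PP libraries. Ccl12 was also highest in both, at 124 CPM in PBP replicate 1 and 106 CPM in PP replicate 1. Ccl6 was at 322 CPM in PBP replicate 1, below every PP library, and at 381 CPM in PP replicate 1, within the range of the other PP libraries. In the LPS groups the sum was 1291 to 3654 CPM in LBL, 1513 to 2424 in LL, 4363 to 6423 in PBL and 2145 to 4948 in PL. In PL it was lowest in replicate 2, at 2145 CPM, the library with the lowest level of all 8 genes in that group. Their part in the chemokine values was not tested. Without the same 5 libraries, 7 genes were called higher for both first LPS responses, and 7 were called lower for LL against PL and for LBL against PBL, with Ccl2 and Ccl12 among them. In LL against PL Ccl2 then came to -1.08 (adjusted p = 0.00316) and Ccl12 to -0.88 (adjusted p = 0.0071). The set was chosen after seeing the data. It took out PL replicate 2, the lowest PL library for both genes, and LL replicate 5, the highest LL library for both. Their removal by itself widens that difference, so these calls are no independent support for it.

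**Figure D5:**
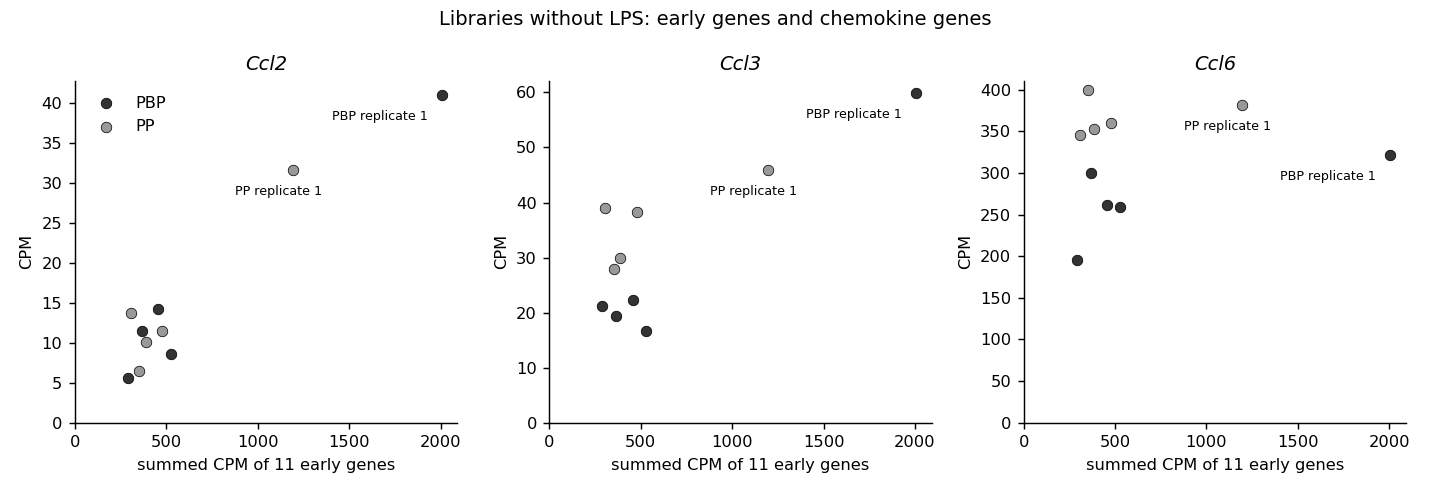
CPM of Ccl2, Ccl3 and Ccl6 (vertical axes) against the summed CPM of 11 early genes (horizontal axis) in the 5 PBP and 5 PP libraries, 1 point per library. PBP replicate 1 and PP replicate 1 have the highest early gene sums, 2006 and 1195 CPM, and the highest Ccl2 and Ccl3 levels.

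Few other CC ligand genes were transcribed at a level that could be tested. Of 15 further ligand genes listed, 11 were in the table and 5 passed the filter on low counts. Ccl22, whose product attracts T cells through CCR4, was called higher after a first LPS in both settings. It was at 6.34 ± 2.45 CPM in PBL and 0.387 ± 0.423 CPM in PBP (SD, n = 5 each; log2 fold change 3.95, SE 0.92, adjusted p = 0.000802). It was at 3.70 ± 1.29 CPM in PL and 0.186 ± 0.352 CPM in PP (log2 fold change 4.25, SE 1.03, adjusted p = 0.00196). It was lower in LBL than in PBL, at 0.588 ± 0.988 CPM in LBL (log2 fold change -3.47, SE 0.90, adjusted p = 0.0144). Ccl24, an eosinophil attractant gene, was called lower in PBL, at 5.02 ± 1.69 CPM, against 9.89 ± 2.24 CPM in PBP (log2 fold change -0.98, SE 0.28, adjusted p = 0.00532). No other gene of this list was called for a first LPS, and none was called in LL against PL.

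Of 15 receptor genes listed, 11 were tested. In PL against PP 4 rose and none fell (14.2% of all tested genes higher, 11.9% lower), and in PBL against PBP 4 rose and 2 fell (21.5% and 21.5%). In LL against PL 1 fell and none rose (2.03% lower, 0.752% higher), and in LBL against PBL 2 fell and none rose (4% lower, 2.74% higher). Ccrl2, a non-signalling receptor that binds chemerin, rose with a first LPS in PL (log2 fold change 2.40, SE 0.28, adjusted p = 5.67e-08). After earlier LPS it was at 21.8 ± 5.70 CPM in LL, against 126 ± 60.0 CPM in PL (log2 fold change -2.52, SE 0.28, adjusted p = 2.64e-06). It was at 27.4 ± 6.40 CPM in LBL, against 173 ± 35.3 CPM in PBL (log2 fold change -2.67, SE 0.27, adjusted p = 1.1e-07). Ccr1, the receptor gene for the Ccl3, Ccl5, Ccl6 and Ccl9 products, had 78.1 ± 19.3 CPM in PL and 36.0 ± 10.9 CPM in PP (log2 fold change 1.12, SE 0.27, adjusted p = 0.00255). It was also higher in LL than in PP (log2 fold change 1.09, SE 0.26, adjusted p = 0.0021). It was not called between LL and PL or between LBL and PBL. Ccr7, which guides cells towards lymph nodes, had no read in any PBP or PP library and 15.2 ± 6.21 CPM in PBL and 5.96 ± 2.93 CPM in PL. It was lower in LBL than in PBL (log2 fold change -2.46, SE 0.68, adjusted p = 0.0315). Ccr2, the receptor gene for the Ccl2, Ccl7 and Ccl12 products and a monocyte marker, was at 2.77 ± 1.78 CPM in PBL, against 15.2 ± 5.55 CPM in PBP (log2 fold change -2.45, SE 0.43, adjusted p = 1.73e-05).

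Of 21 regulators of CC chemokine transcription and mRNA decay, all tested, 15 rose and 2 fell in PL against PP (14.2% of all tested genes higher, 11.9% lower) and 13 rose and 2 fell in PBL against PBP (21.5% and 21.5%). None rose and 7 fell in LL against PL (0.752% and 2.03%), and none rose and 9 fell in LBL against PBL (2.74% and 4%). Their median log2 fold change was 1.14 in PL against PP and 1.04 in PBL against PBP, and -0.52 in LL against PL and -0.74 in LBL against PBL, with medians of all tested genes between 0.00 and 0.01. For the 8 chemokine genes the medians were 4.03, 4.02, -1.30 and -1.34 in the same order. Cebpb, a transcription factor gene, rose most in PL (log2 fold change 4.22, SE 0.28, adjusted p = 3.59e-14) and in PBL (log2 fold change 4.77, SE 0.29, adjusted p = 1.52e-15). The NF-kB subunit genes Relb and Nfkb2 were lower after earlier LPS. For Relb the log2 fold change was -2.28 (SE 0.33, adjusted p = 1.78e-05) in LBL against PBL and -2.21 (SE 0.34, adjusted p = 8.8e-05) in LL against PL. For Nfkb2 it was -1.90 (SE 0.24, adjusted p = 1.11e-06) in LBL against PBL and -1.65 (SE 0.25, adjusted p = 5.49e-05) in LL against PL. Irf1, an interferon regulatory factor gene, fell in LL against PL (log2 fold change -1.58, SE 0.18, adjusted p = 1.4e-06), and Nfkbiz, an NF-kB cofactor gene, in LBL against PBL (log2 fold change -1.78, SE 0.35, adjusted p = 0.0022). Their means were lower in the other setting too, with Irf1 at 91.2 CPM in LBL and 253 CPM in PBL. Nfkbiz averaged 66.4 CPM in LL and 150 CPM in PL. Between PBL and PL 4 regulators rose and none fell (11% and 11.1% of all tested genes), led by Cebpd (log2 fold change 1.1, SE 0.35, adjusted p = 0.0286), and between LBL and LL only Irf7 was called (log2 fold change 1.24, SE 0.31, adjusted p = 0.0387; 0.487% of all tested genes higher). Zfp36, whose product speeds the decay of chemokine mRNAs, rose in PL against PP (log2 fold change 3.34, SE 0.36, adjusted p = 9.06e-08). Its mean was 1163 CPM in LBL, 1154 in LL, 1937 in PBL, 2231 in PL, 330 in PBP and 220 in PP.

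Over the 29 libraries, which share their groups, sorts and depth, the genes outside the 8 whose log2 CPM followed each member most closely by Pearson correlation were Runx1 (r = 0.990), Slfn2 (r = 0.990) and Rassf1 (r = 0.989) for Ccl12. They were Ccdc86 (r = 0.972), Zfand5 (r = 0.971) and Srgn (r = 0.967) for Ccl2 and Il1b (r = 0.946), Il1a (r = 0.942) and Tnip3 (r = 0.939) for Ccl7. For Ccl4 they were Tnf (r = 0.982), Il1a (r = 0.979) and Cd14 (r = 0.978). They were Cxcl10 (r = 0.985), Cd83 (r = 0.981) and Gm49482 (r = 0.974) for Ccl5 and Gm11110 (r = 0.949), Cxcl10 (r = 0.947) and Nfkbib (r = 0.939) for Ccl3. Those of Ccl9 were Cd14 (r = 0.957), Tnfsf9 (r = 0.950) and Elp5 (r = 0.948), and those of Ccl6 were Rbx1-ps (r = 0.915), Vdac2 (r = 0.913) and Slc25a5 (r = 0.906). Ccl6 correlated with the other 7 genes at r between -0.13 and 0.09.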

How the data were processed

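RNA of sorted microglia was sequenced in 29 libraries of 6 groups. The authors deposited whole-number counts per gene; the submitters' processing notes name FastQC 0.11.9, cutadapt 2.10, TopHat, SAMtools 1.10, Picard 2.13.2, HTSeq 0.11.0 and build GRCm39. Annotation release and strand setting were not given in the sources used here. Genes that overlap Ccl2 and Ccl6 on the other strand held at most 9 counts in any library. The RNA quality number is a score that the authors deposited in their sample table, together with the sorter and the sorting day.

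Counts were analysed in R 4.3.3 with edgeR 4.0.16: filterByExpr, TMM scaling, and a robust quasi-likelihood test with 1 term per group over all 29 libraries (23 residual degrees of freedom). P-values were adjusted by Benjamini-Hochberg over the 16632 genes tested of 36982, and a gene was called at an adjusted p under 0.05. SE is the absolute log2 fold change over the square root of F, and intervals are 95%. CPM used TMM-scaled library sizes, and log2 CPM for correlations a prior count of 2. The labels do not say more than that each library is a separate sample, so the p-values cover only the spread between the samples, which may be technical. Between the 56 pairs of libraries within groups, counts differed by more than sampling noise (chi-square per degree of freedom 5.47 to 32.5).

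The 8 genes, the other gene lists and the tests were chosen with earlier results of these data known. Besides the 8 genes, up to 3 called genes with the largest fold change were named per list and comparison, and the 3 genes most correlated with each member. Marker lists were of microglia, border-associated macrophages, monocytes, neutrophils, T and NK cells, B cells, neurons, astrocytes, oligodendrocytes, endothelial cells, red blood cells and early genes. The alternatives were DESeq2 1.42.0, limma 3.58.1 (voom), DESeq2 size factors, other filters, sorter or sorting day in the fit, 1 sorter, the groups compared alone, a replicate block and each library left out. The procedure was tested on simulated data.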

Additional observations from a re-analysis of the deposited data

Results flagged for a closer look

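Of 48 groups of libraries tested (8 genes in 6 groups), 5 held a library whose gap to the nearest other library was past Dixon's 95% critical value, where chance flags about 1 in 20. Ccl2 was at 41.0 CPM in PBP replicate 1, against 5.58 to 14.3 CPM in the other PBP libraries. Ccl3 was at 59.9 CPM in the same library, against 16.7 to 22.3 CPM in the others. Ccl2 was at 31.7 CPM in PP replicate 1, against 6.54 to 13.8 CPM in the other PP libraries. Ccl4 was at 265 CPM in LL replicate 5, against 173 to 185 CPM in the other LL libraries. Ccl5 was at 49.4 CPM in LL replicate 5, against 10.8 to 19.9 CPM in the others. LL replicate 5 was sorted on day 1 and the other LL libraries on day 2, and the part of the sorting day in these values was not tested. PBP replicate 1 and PP replicate 1 also had the highest early gene sums of their groups.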

How the results depend on the processing

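Of 1888 refitted values (8 genes, each comparison and alternative), 1714 kept their direction and side of the threshold, 41 lost the call, 22 gained it, and 111 changed sign without a call in either fit. None changed the direction of a called value. Sign changes included 16 with the sorter in the fit and 10 with sorting day in the fit, such as Ccl2 in LL against PL (-0.82 as reported, 0.93 with the sorter) and in PBL against PL (-0.01 as reported, 1.75 with the sorter), and Ccl12 in LL against PL (-0.62 as reported, 0.17 with the sorter). The counts of 7 genes for both first LPS responses held in every alternative. With the sorter in the fit, 0 of the 8 genes were called for LL against PL (5 as reported), 4 for LBL against PBP (7 as reported), 0 for PBP against PP, 0 for PBL against PL and 1 for LBL against LL. With sorting day in the fit, 0 genes were called for PBL against PL and 0 for PBP against PP. For PBP against PP the count was also 0 with the groups compared alone, with 1 sorter only and without the 5 libraries that stood apart, a set chosen after seeing the data. For LBL against LL it was 1 with the stricter filter, the groups compared alone, limma voom, DESeq2 or without those 5 libraries, and 2 with 1 sorter only. For the difference between the first LPS responses it was 1 without those 5 libraries. The cause of these changes was not tested. Leaving out 1 library at a time gave 0 to 1 calls for LBL against LL and PBP against PP, 5 to 6 for LBL against PBL, 6 to 7 for LBL against PBP, and no change of count elsewhere. The labels do not say whether the replicate numbers pair the samples, and low correlations cannot exclude it. Same-numbered libraries of the groups compared correlated at -0.31 to 0.29 in their deviations from the group means. At most 4 of 10 libraries correlated best with their own number. With a replicate block the count was 1 for LBL against LL, and the counts of the other comparisons stayed within 1.5 times. Depth limits Ccl7 without LPS, at 4 to 25 counts per library. Over the alternatives, the number of all genes called was 11 (sorter in the fit) to 697 (DESeq2) for LL against PL (463 as reported), 669 to 1509 for LBL against PBL (1121), 2083 to 8276 for PBL against PBP (7163), 3 (sorter in the fit) to 4098 for PBL against PL (3673), 17 to 274 for PBP against PP (88) and 85 to 454 for LBL against LL (201).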
